A study of Mus musculus with 4 samples.

Results

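Aminoacyl-tRNA synthetases, the enzymes that load each transfer RNA with its amino acid, were followed on 4 single-colour microarrays of mouse CD4+ T cells. The genes were taken by symbol, as the current name or the older name without the added 1 (Aars or Aars1), and every probe carrying one of those names was kept. This gave 36 genes, 20 cytosolic and 16 mitochondrial, of 37005 genes and transcripts on the array, with 86 of its 56605 probes. Probes were picked by name and by no measured value, but the members were chosen with earlier results of these data known. All 36 genes had at least 1 probe. Of the 86 probes, 74 were well above background on all 4 arrays and 2, one of Iars2 and one of Wars2, were well above it on none. The other 10 were above it on some arrays only.

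The study asked how the nuclear receptors Nr4a1, Nr4a2 and Nr4a3 act as CD4+ T cells turn into induced regulatory T (iTreg) cells. Its 4 groups, naive T and 3 h iTreg cells of WT and of Nr4a-TKO genotype, had 1 array each. Naive cells were sorted from spleen and lymph nodes as CD4+ cells with low CD25 and CD44, high CD62L and no Foxp3. iTreg cells were such naive cells after 3 h on plate-bound anti-CD3 (2 μg/ml) with anti-CD28 (0.5 μg/ml), IL-2 (10 ng/ml), TGF-β1 (0.2 ng/ml, or 0.5 ng/ml) and antibodies that block IFN-γ and IL-4. The alleles named in the methods were floxed Nr4a1, floxed Nr4a2, Nr4a3-/- and the Foxp3 hCD2-hCD52 knock-in, on C57BL/6J mice 6 to 8 weeks old. According to the methods, knockout naive cells came from mixed chimeras, made with knockout (Ly5.2) plus WT (Ly5.1) marrow in irradiated Rag2-/- hosts, and WT cells from chimeras of WT marrow alone. Genotype and the kind of chimera therefore cannot be told apart. The Cre line and the number of mice behind each array were not given in the sources used here.

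The deletion itself was not visible at every probe. On the log2 scale, the Nr4a1 probe was 1.29 higher on the naive array labelled Nr4a-TKO than on the one labelled WT, and 0.50 higher at 3 h. Nr4a2 was 0.20 and 1.41 higher by its brightest probe, and 0.85 and 1.38 higher by its other probe. Of 3 Nr4a3 probes, one read -1.97 and one -1.55 at 3 h on the array labelled Nr4a-TKO against WT, and the last 0.22. Whether these probes lie inside the deleted parts was not examined here, so groups are named below by their array labels. The 7 naive CD4 T-cell markers and all 5 activation markers were well above background at 3 h on both arrays. Foxp3, the defining Treg factor, stood at log2 levels of 0.76 and 0.94 on the WT arrays at the naive stage and at 3 h, and at -0.59 and -0.54 on those labelled Nr4a-TKO. It was thus well above background before culture, differed by 0.18 and 0.05 between the stages, and does not by itself mark the 3 h cells as Treg cells. Ikzf2, the other Treg marker examined, was at 0.41 and -0.65 on the WT arrays and at -1.06 and -0.49 on the Nr4a-TKO ones. Ikzf2 was thus lower at 3 h on the WT pair (-1.055) and higher on the Nr4a-TKO pair (0.57). Between the labels Ikzf2 differed by -1.47 in naive cells and by 0.16 at 3 h. Between 64.9% and 67.6% of probes were well above background on each array, and no spot was saturated.

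Each synthetase recognises an amino acid and the transfer RNAs that carry it, spends ATP to activate the amino acid, and joins the pair. The enzymes fall into class I and class II by the fold of the catalytic core. In mammals one group of cytosolic enzymes is held together, with the scaffold proteins Aimp1, Aimp2 and Eef1e1, in the multi-synthetase complex; Eprs in that complex carries both the glutamate and the proline activities. Mitochondria use another set, encoded in the nucleus under names that end in 2, except that the genes Gars and Kars supply both compartments. When a T cell is stimulated it grows before it divides and needs charged transfer RNA for protein synthesis, and the transcription factors Myc and Atf4 are known activators of synthetase genes.

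The promoters of 6 cytosolic genes are shown because they hold the letters of 2 elements tied to those factors: the E-box CACGTG, which Myc can bind, and the C/EBP-ATF composite element TGATGNAA, which Atf4 can bind. Sequences are from RefSeq on GRCm38.p6, from 250 bases before to 50 after the annotated start, 5′ to 3′ on the gene's strand, with matches to either element on either strand in capitals. Iars lies at chr13:49681880-49682179 (+), Tars at chr15:11399609-11399908 (-), Aars at chr8:111033592-111033891 (+), Yars at chr4:129189653-129189952 (+), Gars at chr6:55037751-55038050 (+) and Farsb at chr1:78488848-78489147 (-).
Iars: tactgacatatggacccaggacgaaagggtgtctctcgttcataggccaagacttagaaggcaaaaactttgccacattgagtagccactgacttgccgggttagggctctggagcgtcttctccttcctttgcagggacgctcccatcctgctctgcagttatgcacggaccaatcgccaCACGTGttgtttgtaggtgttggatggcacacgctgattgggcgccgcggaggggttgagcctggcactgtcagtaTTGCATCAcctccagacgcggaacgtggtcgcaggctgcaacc
Tars: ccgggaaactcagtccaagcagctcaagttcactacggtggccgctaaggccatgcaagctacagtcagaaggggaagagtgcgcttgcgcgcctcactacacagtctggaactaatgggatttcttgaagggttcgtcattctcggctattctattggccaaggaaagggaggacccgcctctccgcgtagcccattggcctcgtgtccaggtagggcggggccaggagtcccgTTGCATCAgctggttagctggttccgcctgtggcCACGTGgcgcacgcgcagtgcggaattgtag
Aars: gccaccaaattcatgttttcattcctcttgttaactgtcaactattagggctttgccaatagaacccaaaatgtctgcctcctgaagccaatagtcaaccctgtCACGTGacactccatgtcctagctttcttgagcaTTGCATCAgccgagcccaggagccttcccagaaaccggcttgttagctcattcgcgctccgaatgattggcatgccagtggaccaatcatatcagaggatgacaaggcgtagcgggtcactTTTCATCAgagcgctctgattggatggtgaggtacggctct
Yars: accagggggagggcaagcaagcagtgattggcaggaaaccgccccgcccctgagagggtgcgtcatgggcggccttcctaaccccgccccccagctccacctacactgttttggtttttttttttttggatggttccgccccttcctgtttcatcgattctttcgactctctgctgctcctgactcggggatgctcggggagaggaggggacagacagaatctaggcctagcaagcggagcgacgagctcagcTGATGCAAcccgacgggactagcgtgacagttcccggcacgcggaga
Gars: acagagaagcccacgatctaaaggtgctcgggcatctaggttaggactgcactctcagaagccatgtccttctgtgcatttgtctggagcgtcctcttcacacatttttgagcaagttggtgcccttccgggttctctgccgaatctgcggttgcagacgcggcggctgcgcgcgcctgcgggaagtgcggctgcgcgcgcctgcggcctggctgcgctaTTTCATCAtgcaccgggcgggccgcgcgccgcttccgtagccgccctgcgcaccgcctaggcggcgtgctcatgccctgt
Farsb: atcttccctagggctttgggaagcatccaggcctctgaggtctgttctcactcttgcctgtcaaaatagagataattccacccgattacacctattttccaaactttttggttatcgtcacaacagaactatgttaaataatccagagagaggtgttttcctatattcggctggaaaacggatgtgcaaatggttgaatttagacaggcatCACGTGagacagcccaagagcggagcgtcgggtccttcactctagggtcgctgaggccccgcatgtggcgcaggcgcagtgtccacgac

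Iars, Tars and Aars held both elements, Yars and Gars the composite element alone, and Farsb the E-box alone. Counted from the annotated start, the composite element began at position 8 in Iars, at -15 in Tars, at -112 and again at 10 in Aars, at 4 in Yars and at -30 in Gars. The E-box began at -69 in Iars, 20 in Tars, -146 in Aars and -39 in Farsb. No match of one element overlapped a match of the other. Promoters were found for 27 of the 36 genes, 13 cytosolic and 14 mitochondrial. The composite element was in 5 of the 13 cytosolic promoters (38.5%), in none of the 14 mitochondrial genes, and in 3.97% of all 32851 promoters. The E-box was in 4 of the 13 (30.8%), in 1 of the 14 mitochondrial genes (Ears2), and in 7.15% of all promoters. A match describes the letters only, and binding was not measured on these arrays.

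On the arrays labelled WT, the cytosolic synthetases rose together between naive T and iTreg at 3 h, while most of the mitochondrial set stayed within 2-fold. Of the 20 cytosolic genes, 18 were more than 2-fold higher at 3 h and none was lower, against 9.91% of 26602 genes tested higher and 11.1% lower by more than 2-fold. The median log2 difference of the 20 genes was 1.74, beside -0.10 for all genes. Of the 16 mitochondrial genes, Yars2 alone was more than 2-fold higher and Cars2 alone more than 2-fold lower, and the median was 0.29. Each value is from the brightest probe of a gene, as the log2 of the processed intensity relative to the 75th percentile of its array. Within a label, 1 array per stage left no spread between replicates to test against, and a fit over both labels is given after the values of both. Probes spotted at least 5 times showed how far one spot repeats. The SD of a log2 difference between arrays was 0.17 in the level range of the synthetases. It was 0.27 for probes with a log2 level below -1, or 0.34 on the processed signal. Most of these probes were bright: per array, 262 to 264 lay above a level of 1, 6 to 11 between -1 and 1, and 11 to 17 below -1. This SD leaves out the variation among mice and cultures. On bulk RNA, fewer cells of a type and less RNA per cell cannot be told apart.

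**Figure D1:**
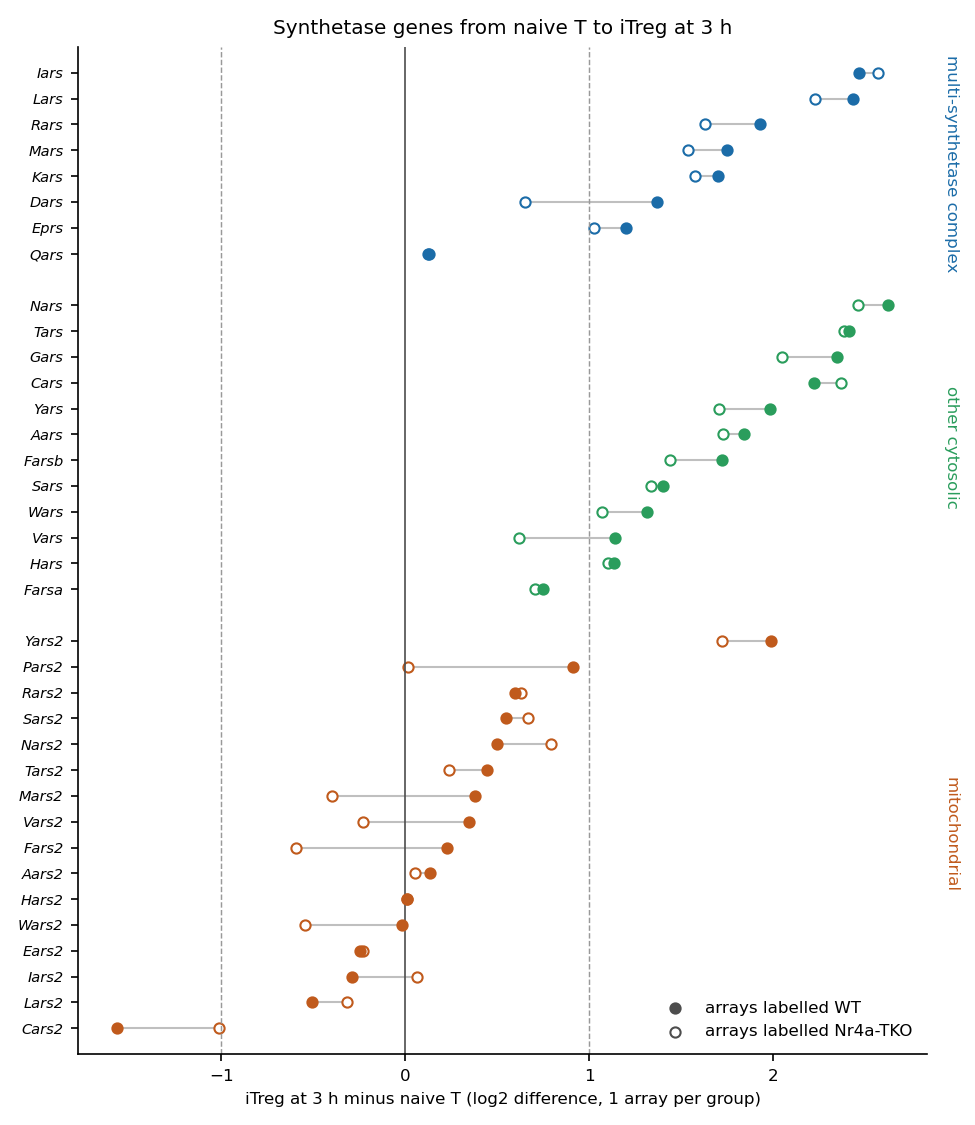
Log2 difference between iTreg at 3 h and naive T for each of the 36 synthetase genes (brightest probe), on the arrays labelled WT (filled) and Nr4a-TKO (open), 1 array per group; dashed lines mark 2-fold. Of the cytosolic genes, 18 lie beyond the right line on the WT arrays and 16 on those labelled Nr4a-TKO, while Yars2 alone does so among the mitochondrial genes.

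**Figure D2:**
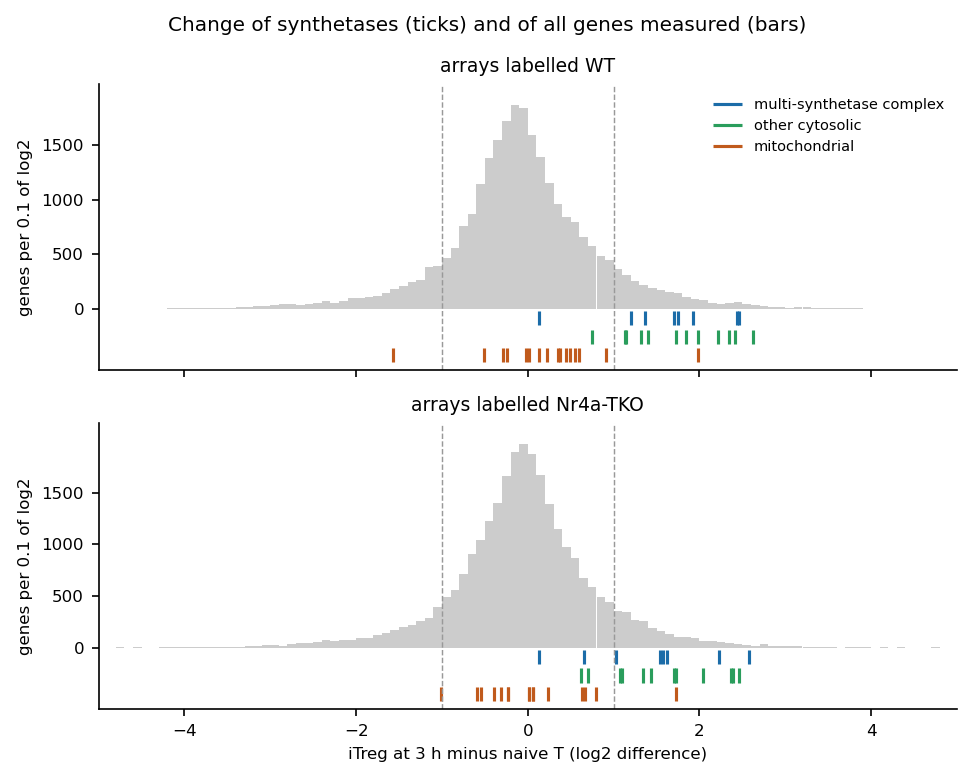
Log2 difference between iTreg at 3 h and naive T for all genes tested (bars, genes per 0.1 of log2) and for the synthetases (ticks, 3 groups), for the arrays labelled WT (top) and Nr4a-TKO (bottom); dashed lines mark 2-fold. The cytosolic ticks (medians 1.74 and 1.56) sit in the upper part of the distribution and the mitochondrial ticks (medians 0.29 and 0.01) around its centre.

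Of the 8 enzymes of the multi-synthetase complex, 7 were more than 2-fold higher at 3 h on the WT arrays, with a median of 1.73. The isoleucine enzyme Iars had log2 levels of -0.11 on the WT naive T array, -0.28 on Nr4a-TKO naive T, 2.35 on WT iTreg and 2.30 on Nr4a-TKO iTreg. Both 3 h arrays lay far above both naive arrays, by 2.46 on the WT pair and 2.57 on the Nr4a-TKO pair, and 98.8% of all genes tested had a lower difference on the WT arrays. The leucine enzyme Lars was at 1.38, 1.59, 3.81 and 3.82 in the same order of arrays, a difference of 2.43 and 2.23. The arginine enzyme Rars was at 1.31, 1.51, 3.24 and 3.13, or 1.93 and 1.63 higher at 3 h. For these 3 genes the gap between the stages was several times the gap between the labels at either stage.

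The methionine enzyme Mars, which also charges the initiator transfer RNA, had log2 levels of -0.70 and -0.86 on the naive arrays labelled WT and Nr4a-TKO and 1.05 and 0.68 at 3 h. The lysine enzyme Kars, shared with mitochondria, was at 2.54 and 2.54 in naive cells and at 4.24 and 4.12 at 3 h. Both genes were higher on the 3 h arrays of either label, Mars by 1.75 and 1.53 and Kars by 1.70 and 1.58 on the log2 scale. Eprs, the enzyme for glutamate and proline, was at 4.64 and 4.63 in naive cells and 5.85 and 5.66 at 3 h. Its brightest probe rose by 1.20 and 1.03, whereas 3 of its 4 other probes rose by 1.99, 2.05 and 2.06 on the WT arrays and the last by 1.08. The mean over its 5 probes was 1.68 ± 0.49 (SD over 5 probes) on the WT arrays.

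Dars and Qars stood apart from the other enzymes of the complex. The design places the probe of each over an interval of the genome (mm9) that is longer than the probe's 60 bases, as at an exon junction, from 130310284 to 130311944 on chromosome 1 for Dars and from 108417534 to 108418156 on chromosome 9 for Qars. Both probes are shown because the exceptions rest on them.
Dars: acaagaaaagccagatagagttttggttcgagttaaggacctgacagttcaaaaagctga
Qars: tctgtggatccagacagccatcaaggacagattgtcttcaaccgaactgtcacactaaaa
The glutamine enzyme Qars had log2 levels of 0.57 on WT naive T, 0.46 on Nr4a-TKO naive T, 0.70 on WT iTreg and 0.59 on Nr4a-TKO iTreg. All 4 arrays lay close together, and Qars differed by 0.13 and 0.13 between the stages, the lowest change of the 20 cytosolic genes on either pair. Its other bright probe gave 0.37 on the WT pair.

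The aspartate enzyme Dars was at 0.59 and 0.65 on the naive arrays labelled WT and Nr4a-TKO, at 1.96 on WT iTreg and at 1.30 on Nr4a-TKO iTreg. Its levels were close in naive cells and apart at 3 h, so that the change was 1.37 on the WT pair and 0.65, short of 2-fold, on the Nr4a-TKO pair. A second Dars probe, designed to an Ensembl transcript model, gave -0.06 and 0.07. The mean of both probes on the WT pair was 0.65 ± 1.01 (SD over 2 probes), below 2-fold.

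Of the 12 other cytosolic genes, 11 rose more than 2-fold on the WT arrays, with a median of 1.78. The asparagine enzyme Nars, with the largest difference of the 36 genes on the WT pair, had log2 levels of 0.98 on WT naive T, 0.63 on Nr4a-TKO naive T, 3.61 on WT iTreg and 3.09 on Nr4a-TKO iTreg. Nars rose by 2.62 on the WT pair and 2.46 on the other. The threonine enzyme Tars was at 2.03, 2.10, 4.44 and 4.48 in that order, a difference of 2.41 and 2.39. The glycine enzyme Gars, the other gene shared with mitochondria, was at 3.98, 4.18, 6.32 and 6.22, a difference of 2.35 and 2.05. All 3 rose more than 4-fold on both pairs, and the levels of the 2 labels lay much closer to each other than to the other stage.

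The cysteine enzyme Cars had log2 levels of 0.73 and 0.45 in naive cells labelled WT and Nr4a-TKO and of 2.95 and 2.82 at 3 h, and rose by 2.22 and 2.37. Its 3 probes gave a mean of 2.40 ± 0.16 (SD over 3 probes) on the WT pair. The tyrosine enzyme Yars was at 0.42 and 0.43 in naive cells and 2.41 and 2.13 at 3 h, a rise of 1.98 and 1.71. By this brightest probe Yars started from nearly equal levels under both labels and was lower on the Nr4a-TKO array at 3 h. Its other probes, well above background on all 4 arrays, differed between the labels by -0.08 and -0.40 in naive cells. At 3 h those probes differed by -0.18 and 0.004. The alanine enzyme Aars was at -0.59 and -0.66 in naive cells and at 1.25 and 1.07 at 3 h, a rise of 1.84 and 1.73 by its brightest probe.

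The probes of Aars disagreed. Of the 2 others that were well above background on all 4 arrays, one changed by 0.09 on the WT pair and one by 0.89, which gives 0.94 ± 0.87 (mean and SD over 3 probes). A further Aars probe was well above background on the Nr4a-TKO naive T array only. With it, the mean over all 5 probes on the Nr4a-TKO pair had the opposite sign, -0.18.

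The phenylalanine enzyme is built of an alpha subunit, Farsa, and a beta subunit, Farsb, whose brightest probes changed by different amounts. Farsb had log2 levels of 2.95 on WT naive T, 2.95 on Nr4a-TKO naive T, 4.67 on WT iTreg and 4.39 on Nr4a-TKO iTreg, a rise of 1.72 and 1.44. Farsa was at 2.39, 2.34, 3.14 and 3.05, a difference of 0.75 and 0.70 that stayed short of 2-fold on both pairs. Over the 3 bright probes of each gene the WT difference was 1.47 ± 0.34 for Farsb and 0.83 ± 0.14 for Farsa (mean and SD over 3 probes). There the lowest Farsb probe (1.08) lay above the highest of those Farsa probes (0.99), but a dim Farsa probe, not well above background on WT naive T, was higher at 3 h by at least 1.57. On the Nr4a-TKO pair the means were 1.05 ± 0.40 for Farsb and 0.95 ± 0.26 for Farsa (mean and SD over 3 probes), and the probes of the 2 genes overlapped, the lowest of Farsb at 0.64 and the highest of Farsa at 1.23.

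Smaller rises were measured for the enzymes of serine, tryptophan, valine and histidine. Sars had log2 levels of 0.82 and 0.58 in naive cells labelled WT and Nr4a-TKO and 2.22 and 1.92 at 3 h, a rise of 1.40 and 1.34. Its second probe gave 0.59 on the WT pair, and the mean of both was just under 2-fold at 0.998. Wars was at 1.51 and 1.45 in naive cells and 2.83 and 2.52 at 3 h, a rise of 1.31 and 1.07. Vars was at -0.12 and -0.06 in naive cells and at 1.02 and 0.56 at 3 h, which passed 2-fold on the WT pair (1.14) but not on the Nr4a-TKO pair (0.62). Hars was at 0.77 and 1.13 in naive cells and 1.91 and 2.24 at 3 h, a rise of 1.14 and 1.1. Every one of these 4 genes was higher on both 3 h arrays than on both naive arrays, but without background correction Vars and Hars fell short of 2-fold on the WT pair (0.92 and 0.94) and Hars and Wars on the Nr4a-TKO pair (0.92 and 0.87).

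**Figure D3:**
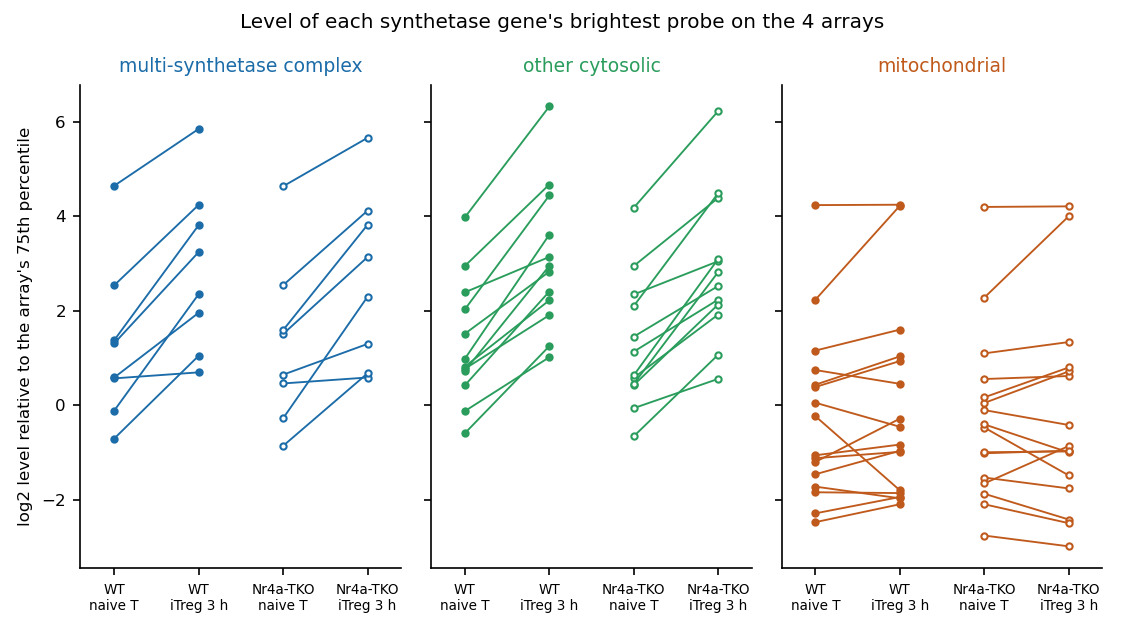
Log2 level of the brightest probe of each synthetase gene, relative to the array's 75th percentile, on the 4 arrays, with a line joining naive T and iTreg at 3 h under each label; levels of different genes are not comparable, since probes differ. The lines of the 20 cytosolic genes all slope up, while those of the 16 mitochondrial genes run in both directions, with Yars2 rising and Cars2 falling.

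Divided by catalytic fold instead, 8 of 9 class I cytosolic enzymes were more than 2-fold higher at 3 h on the WT pair, with a median of 1.93, and 9 of 10 class II enzymes, with a median of 1.71. Eprs belongs to both classes and was left out of that count. The range within each class (from 0.13 for Qars to 2.46 for Iars, and from 0.75 for Farsa to 2.62 for Nars) was far wider than the distance between the medians.

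Among mitochondrial enzymes, the tyrosine enzyme Yars2 had log2 levels of 2.24 on WT naive T, 2.28 on Nr4a-TKO naive T, 4.22 on WT iTreg and 4.0 on Nr4a-TKO iTreg. It rose by 1.99 and 1.72, as far as its cytosolic counterpart Yars, and a second bright probe rose by 1.72 and 1.57. The cysteine enzyme Cars2 was at -0.23, -0.47, -1.80 and -1.48 in that order, so that both 3 h arrays lay below both naive arrays. Cars2 fell by 1.57 on the WT pair and by 1.01 on the Nr4a-TKO pair, and its second probe fell by 2.03 and 1.27. Under the 3 other background corrections the brightest Cars2 probe stayed lower on the WT pair, at -1.35 (past 2-fold) with normexp and an offset of 0, and within 2-fold at -0.66 with an offset of 50 and at -0.91 without correction.

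The remaining 14 mitochondrial genes lay within 2-fold on the WT pair. The proline enzyme Pars2 had log2 levels of -1.20 on WT naive T, -0.99 on Nr4a-TKO naive T, -0.28 on WT iTreg and -0.98 on Nr4a-TKO iTreg. Only the WT iTreg array was raised, by 0.91, and a second Pars2 probe gave -0.42 there. The arginine enzyme Rars2 was at 0.44, 0.17, 1.03 and 0.80, a difference of 0.60 and 0.63. At the other end, Lars2, for leucine, was at 0.05, -0.10, -0.45 and -0.42, a difference of -0.51 and -0.32. Iars2, for isoleucine, was at 0.75, 0.56, 0.45 and 0.62, a difference of -0.29 and 0.06. Thus Lars2 and Iars2 were slightly lower at 3 h on the WT pair where Lars and Iars rose more than 4-fold.

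The other genes of the set were Sars2, Nars2, Tars2, Mars2, Vars2, Fars2, Aars2, Hars2, Wars2 and Ears2, with WT differences from -0.25 for Ears2 to 0.55 for Sars2. Probes of a gene disagreed in several cases: Tars2 gave 0.44 and 0.52 by 2 probes, -0.13 by another and -1.0 by one designed to another transcript, and Fars2 gave 0.23 and -1.65. The SD of the WT difference among probes of a gene, pooled over genes with several bright probes, was 0.56 over 11 mitochondrial genes, 0.46 over 12 cytosolic genes and 0.50 over 6649 genes of the array.

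**Figure D4:**
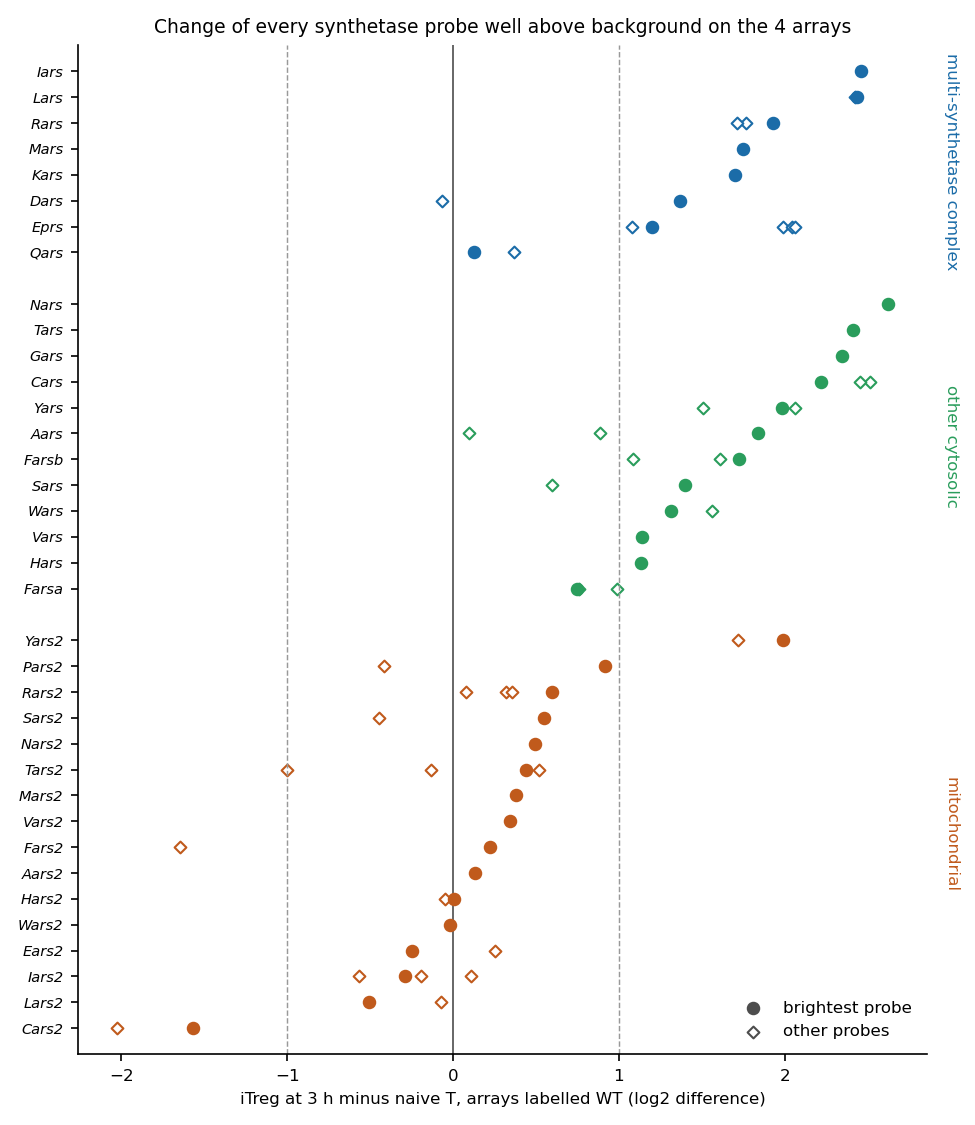
Log2 difference between iTreg at 3 h and naive T on the arrays labelled WT, for each synthetase probe well above background on all 4 arrays, by gene, with the brightest probe filled and the others open; dashed lines mark 2-fold. Probes of Lars, Cars and Rars lie close together, while a probe of Dars and one of Aars lie near 0, and the probes of Fars2, Pars2 and Tars2 fall on both sides of 0.

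For each amino acid with an enzyme in both compartments, the 2 genes were set side by side, which gave 17 pairs when both Farsa and Farsb were paired with Fars2 and Eprs with both Ears2 and Pars2. The cytosolic change was the higher one in 16 of 17 pairs under either label, by more than 2-fold in 12 pairs on the WT arrays and 13 on those labelled Nr4a-TKO. The median distance was 1.37 on the WT arrays and 1.62 on the others. Cysteine had the widest gap on the WT arrays, 2.22 for Cars against -1.57 for Cars2, and tyrosine had none (1.98 for Yars and 1.99 for Yars2). These pairs are not independent, since they share arrays and some share a gene.

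On the arrays labelled Nr4a-TKO, the same comparison of stages gave 16 of 20 cytosolic genes more than 2-fold higher and none lower, against 9.26% of 27175 genes tested higher and 9.9% lower. The median was 1.56 for the cytosolic genes and 0.01 for the mitochondrial ones, beside -0.05 for all genes. Qars and Farsa stayed short of 2-fold as they did under the WT label, and Dars and Vars did so here too. Yars2 rose and Cars2 fell, though Cars2 (-1.01) sat at the threshold and was within it when arrays were scaled to their median (-0.96). Eprs (1.03), Wars (1.07) and Hars (1.1) were just past 2-fold and fell below it (0.79, 0.91 and 0.97) with normexp background correction and quantile normalization.

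Taken over both labels, the 4 arrays allowed a test of the stage, which was added after these values had been seen. A limma fit of stage plus label, over genes well above background on all 4 arrays, left 1 residual degree of freedom per gene and shared the spread across genes. Its error is how far the change between the stages differed between the labels, in place of a spread between replicates. In this fit 18 of the 20 cytosolic genes were higher at 3 h at an adjusted p below 0.05 (Benjamini-Hochberg over all genes) and none lower, against 14% of 22629 genes higher and 12.8% lower. Farsa, short of 2-fold on both pairs, passed with a difference of 0.73 ± 0.13 (SE; limma, adjusted p = 0.0314), as did Vars (0.88 ± 0.19, adjusted p = 0.045). Qars (0.13 ± 0.13, adjusted p = 0.502) and Dars (1.01 ± 0.23, adjusted p = 0.0505) did not pass. Of the 16 mitochondrial genes, 3 were higher and 1 lower in the limma fit (18.8% and 6.25%), beside 14% and 12.8% of all genes. Yars2 had an adjusted p of 0.0101, Rars2 (0.62 ± 0.13) of 0.0432, Sars2 (0.61 ± 0.13) of 0.047 and Cars2 (-1.29 ± 0.19) of 0.023. Rars2 and Sars2 thus passed the test with differences short of 2-fold, by their brightest probes. A Rars2 probe nearly as bright changed by 0.08 and 0.31 on the WT and Nr4a-TKO pairs. The mean over the bright Rars2 probes was 0.34 ± 0.21 on the WT pair (SD over 4 probes). A second Sars2 probe gave -0.45 and -0.23 on the WT and Nr4a-TKO pairs, and where all probes of a gene were averaged 1 mitochondrial gene in place of 3 was higher.

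Of the 3 scaffold genes of the complex, 2 rose more than 2-fold on the WT pair and 3 on the Nr4a-TKO pair. Of all genes tested, 9.91% did so on the WT pair and 9.26% on the Nr4a-TKO pair. Eef1e1 had log2 levels of 0.59 on WT naive T, 0.52 on Nr4a-TKO naive T, 3.13 on WT iTreg and 3.00 on Nr4a-TKO iTreg. By this brightest probe it rose by 2.54 and 2.48. A dimmer second Eef1e1 probe, well above background on all 4 arrays, gave 0.03 and 0.02. Aimp2 was at 0.14, 0.04, 2.11 and 1.92, a rise of 1.96 and 1.88. Aimp1 differed by 0.86 on the WT pair, short of 2-fold, and by 1.1 on the Nr4a-TKO pair. All 3 were higher at 3 h in the limma fit over both labels, against 14% of all genes. Aimp1 had the highest adjusted p of the 3 in that fit (0.0217).

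Of 11 other genes of transfer RNA charging and editing, 10 could be tested on the WT pair. There 1 was more than 2-fold higher and 1 lower, with a median of 0.30. That is near the share of all genes tested, 9.91% higher and 11.1% lower. Gatc, a subunit of the amidotransferase that makes mitochondrial glutaminyl-tRNA, rose by 1.35, and Pstk, a kinase in the making of selenocysteinyl-tRNA, fell by 1.15. On the Nr4a-TKO pair none of the 11 was past 2-fold (Gatc 0.84, Pstk -0.97). Qrsl1 and Gatb, the other amidotransferase subunits, differed by 0.31 and -0.33 on the WT pair. These values are from the brightest probes. Second probes, well above background on all 4 arrays, gave 1.20 for Qrsl1 and 0.21 for Gatb there. A second bright Pstk probe gave -0.63 and -0.18 on the WT and Nr4a-TKO pairs. A dim second Gatc probe gave 0.58 and 0.67.

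Of 5 regulators and sensors on the list, 2 were more than 2-fold higher under each label, against 9.91% (WT) and 9.26% (Nr4a-TKO) of all genes tested. Myc had log2 levels of 3.42 on WT naive T, 3.30 on Nr4a-TKO naive T, 5.93 on WT iTreg and 5.34 on Nr4a-TKO iTreg, a rise of 2.51 and 2.04. Atf4 was at 6.13, 5.85, 6.91 and 6.95, and its difference passed 2-fold on the Nr4a-TKO pair only (0.78 and 1.1). Sesn2, a leucine sensor that Atf4 is known to induce, rose by 1.66 on the WT pair and differed by 0.84 on the other. Eif2ak4 (GCN2), the kinase that senses uncharged transfer RNA, and its partner Gcn1l1 differed by 0.90 and 0.83 on the WT pair, both short of 2-fold. In the limma fit over both labels all 5 were higher at 3 h at an adjusted p below 0.05, against 14% of all genes. Of the 6 genes whose promoters are shown above, all rose more than 2-fold under both labels by their brightest probes. So did Eprs, Kars, Mars, Sars and Yars2, which had no match to either element in the window. The other cytosolic genes with a promoter and no match did not. Qars (0.13 and 0.13) and Farsa (0.75 and 0.70) passed 2-fold under neither label, and Dars (1.37 and 0.65) under WT only. Ears2, which holds an E-box, differed by -0.25 and -0.23. Of the mitochondrial genes with a promoter and no match, Yars2 alone rose past 2-fold.

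Between the labels, no synthetase was more than 2-fold apart in naive T cells by its brightest probe, where 2.75% of 26446 genes tested were higher on the knockout-labelled array and 2.56% lower. The 36 differences ran from -0.47 for Vars2 to 0.65 for Fars2, with a median of -0.04, beside -0.01 for all genes. The second Fars2 probe differed by -0.94, in the other direction, so Fars2 has no settled direction. Of the 79 probes that could be compared, 3 were more than 2-fold apart, and none of them was the brightest of its gene. A probe of Pars2 differed by -1.34 and one of Tars2, designed to another transcript, by -1.55, while the Aars probe seen on the Nr4a-TKO naive T array alone was higher there by at least 3.32. Of the 20 cytosolic genes, 13 differed by less than 0.17, the SD from repeated spots.

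In iTreg cells at 3 h the synthetases were mostly a little below their WT level on the Nr4a-TKO array. Of the 36 genes, 27 were below 0, and 17 of the 20 cytosolic genes, where 47.3% of all genes tested were below 0. The median of the 36 was -0.17, beside 0.02 for all genes. One of the 36 was more than 2-fold lower and none higher, where 2.63% of 26918 genes tested were lower and 2.74% higher. Under the 10 other settings tried, between 27 and 29 genes lay below 0 and the median lay between -0.19 and -0.12. The cytosolic differences ran from -0.66 for Dars to 0.33 for Hars, with a median of -0.16, and 9 of the 20 differed by less than 0.17, the SD from repeated spots. The SD among probes of a gene, pooled over 12 cytosolic genes, was 0.18. In the limma fit over both stages, 0 of 22629 genes (0% higher, 0% lower) and so none of the 36 differed between the labels at an adjusted p below 0.05. At an unadjusted p below 0.05, 2 of the 36 did, Nars (-0.43 ± 0.13 SE) and Vars2 (-0.76 ± 0.20 SE), as did 7.46% of all genes. A single array per label and stage cannot show whether a shift of this size exceeds the spread between mice or cultures.

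**Figure D5:**
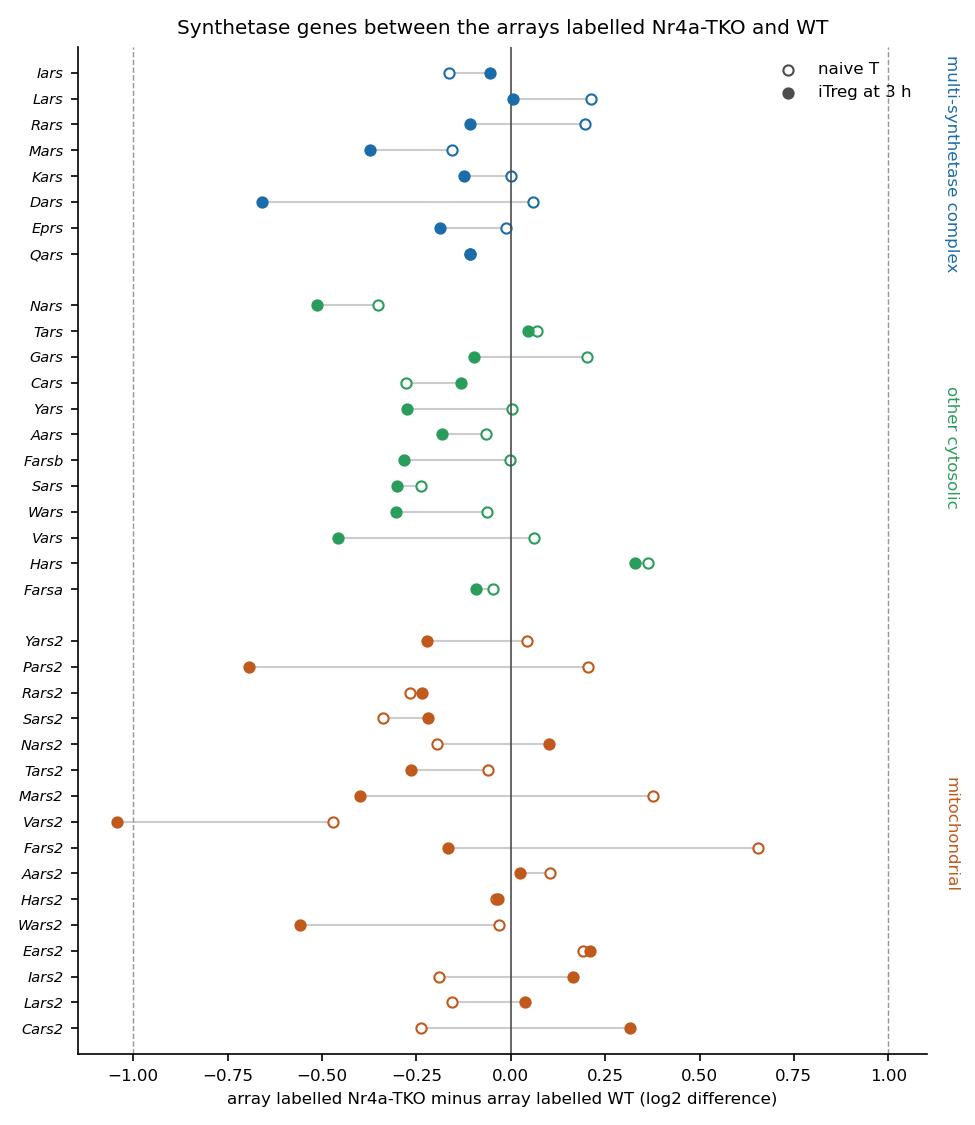
Log2 difference between the arrays labelled Nr4a-TKO and WT for each synthetase gene (brightest probe), in naive T (open) and in iTreg at 3 h (filled), 1 array per group; dashed lines mark 2-fold. At 3 h, 27 of 36 genes lie left of 0 and Vars2 alone passes 2-fold, and in naive T the genes lie on both sides of 0 (15 right, 21 left).

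In the complex, the genes most apart at 3 h were Dars (-0.66), Mars (-0.37) and Eprs (-0.19). Among the other cytosolic genes they were Nars (-0.51), Vars (-0.46) and Hars, which differed the other way, by 0.33 at 3 h and by 0.36 in naive cells. Nars was lower by a like amount before culture (-0.35), whereas Dars (0.06) and Vars (0.06) were close to 0 there. The second probe of Dars differed by 0.11 at 3 h. A dim second probe of Hars, well above background at 3 h only, differed by -1.3, against the direction of the brightest.

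Among mitochondrial genes the valine enzyme Vars2 had log2 levels of -2.28 on WT naive T, -2.75 on Nr4a-TKO naive T, -1.94 on WT iTreg and -2.98 on Nr4a-TKO iTreg. It was the single synthetase past 2-fold between labels at 3 h by its brightest probe (-1.04). Its 1 probe was dim on every array, and the value shrank to -0.77, -0.39 and -0.23 under the 3 other background corrections. Pars2 differed by -0.69 at 3 h and by -0.91 at its second probe. Wars2, for tryptophan, had log2 levels of -1.84, -1.87, -1.86 and -2.42 in the same order, and differed by -0.56 at 3 h.

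Put the other way, the change from naive T to iTreg was smaller under the Nr4a-TKO label for 18 of 20 cytosolic genes, with a median difference of changes of -0.17, and for 8 of 16 mitochondrial genes (median -0.04). Of all 25500 genes tested in both, it was smaller for 46.7%, with a median of 0.03. By the brightest probes, the cytosolic exceptions were Iars (0.11) and Cars (0.15). The cytosolic count depends on that choice of probe. By the mean over bright probes, the change was not smaller for Eprs (1.68 WT, 1.73 Nr4a-TKO), Lars (2.43, 2.49) and Rars (1.80, 1.82). Nor was it for Aars (0.94, 1.03), Farsa (0.83, 0.95), Sars (0.998, 1.003), Yars (1.85, 1.86) and Cars. Of the 12 cytosolic genes with several bright probes, only Dars, Farsb, Qars and Wars kept a smaller change. Both changes draw on the same 4 arrays as the differences between labels, so these counts are no separate evidence. Myc was lower on the Nr4a-TKO array at 3 h, by 0.59 and 0.50 at its 2 probes, and Atf4 differed by 0.04. A link of either to the synthetase values was not tested.

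Marker lists of T-cell states and of other cells moved with the labels and with the stages too. Levels are summed over a list in units of each array's 75th percentile, and are given for the naive arrays labelled WT and Nr4a-TKO and then for the 3 h arrays in the same order. The 4 B-cell markers summed to 6.3, 7.08, 3.49 and 5.13 and were well above background on every array. All 4 were lower at 3 h than in naive cells under both labels, and all 4 were higher at 3 h under the Nr4a-TKO label. Both CD8 markers were lower at 3 h under both labels, with sums of 1.57, 1.41, 1.02 and 0.77, and Cd8a (-0.70) and Cd8b1 (-0.37) were lower under the Nr4a-TKO label at 3 h.

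The 5 activation markers (Cd69, Il2, Irf4 and the others) were higher at 3 h under both labels, with sums of 20.9, 27.1, 251 and 312, and all 5 were higher under the Nr4a-TKO label at 3 h. The 7 naive T-cell markers were lower at 3 h under both labels, with sums of 192, 191, 104 and 83.5, and all 7 were lower under the Nr4a-TKO label at 3 h. Of 3 erythroid markers, Hbb-b1 was well above background on no array, and at 3 h Alas2 (1.13) and Hba-a1 (0.26) were higher under the Nr4a-TKO label. The 4 myeloid markers summed to between 392 and 492, nearly all of it from the probe of Itgam, with Lyz2 near the background. The part of these lists in the synthetase values was not tested.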

How the data were processed

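RNA of 4 samples, 1 per group, was labelled with Cy3 and hybridised to Agilent mouse arrays (60-base probes, mm9 design) on 1 slide; per the submitters' notes, signals were extracted with Agilent Feature Extraction 11.5.1.1. The authors deposited, for each array, intensity per spot: the mean and local background signal and a processed signal that is background-subtracted and detrended. They also deposited a table of log2 values, which equals the log2 of the processed intensity minus each array's 75th percentile; the methods name RMA in GeneSpring, and how that was applied was not given in the sources used here. Because that detrending used replicate spots, per the file headers, the spread of repeated spots was taken from the background-subtracted mean signal.

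Here log2 processed intensity minus the 75th percentile was computed per array (pandas 2.3.3, numpy 2.4.6; R 4.3.3 and limma 3.58.1 for other corrections), leaving out control spots and the 115 to 160 outlier-flagged spots per array. Spots of a probe were averaged, and the brightest probe stands for a gene. A comparison needed the probe well above background on an array of it. A level at the lowest well-above-background signal was used for a dim side. Of 56605 probes, 86 were members', 41620 were named by symbol, 519 by synonym and 1513 by transcript, and 12867 kept the name in the files. Values on all arrays are given for genes past 2-fold in a comparison and, per group, for the 3 highest and 3 lowest changes on the WT arrays and the 3 most apart at 3 h; Farsa and genes on which another value turns are included. The members, gene lists, motifs and thresholds were chosen with earlier results of these data known. With 1 array per group no test was made within a label; a limma fit of stage plus label (lmFit, eBayes, Benjamini-Hochberg) over the 22629 genes well above background on all 4 arrays, added after the values were seen, used the 1 residual degree of freedom. The number of arrays limits the precision. The calculation was tested on simulated data. Alternatives were background correction, normalization, the rule for a gene's probe, the filter on dim probes, flagged spots and the fold threshold.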

Additional observations from a re-analysis of the deposited data

Results flagged for a closer look

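For 3 mitochondrial enzymes the difference between naive T and 3 h iTreg cells ran up on the arrays labelled WT and down on those labelled Nr4a-TKO. The gap between the 2 changes, Nr4a-TKO minus WT on the log2 scale, was -0.82 for Fars2 (0.23 and -0.59), -0.78 for Mars2 (0.38 and -0.40) and -0.57 for Vars2 (0.35 and -0.23). With 1 array in each group this gap was not tested. None of the 6 changes reached 2-fold. The second Fars2 probe changed by -1.65 and -0.86, down under both labels. Mars2, the methionine enzyme, had log2 levels of -2.47 and -2.09 on the naive arrays labelled WT and Nr4a-TKO. At 3 h its levels were -2.09 and -2.49 in the same order. Its probe was thus dim on all 4 arrays, as that of Vars2 was. At log2 levels below -1 the SD of a difference from repeated spots was 0.27, or 0.34 on the processed signal.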

How the results depend on the processing

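The SD of the difference between repeated spots (0.17) was the yardstick for a change of a median. The arrays carry no replicate numbers, so the label was the only block available, and the limma fit of stage plus label used it; without any 1 array that fit has no residual degree of freedom, so no array was left out. In it, the 18 cytosolic genes higher at 3 h were 17 to 19 under the other settings. The 3 mitochondrial genes higher became 4 with normexp at either offset, without background correction and with scaling to the array median. They became 2 with the mean over probes well above background on all 4 arrays. They became 1 with the deposited values and 1 with the mean over all probes. The 1 mitochondrial gene lower became 2 with the mean over all probes or over those well above background. Normexp background correction (offset 0, then offset 50) and no background correction, each with quantile normalization, lowered the cytosolic median to 1.61, 1.296 and 1.47 on the WT arrays (1.74 as reported) and to 1.41, 1.09 and 1.25 on those labelled Nr4a-TKO (1.56). The mitochondrial WT median (0.29) was 0.14 with offset 50, 0.22 without correction, 0.22 as a mean over genes, 0.092 with the mean over all probes of a gene and 0.026 with the mean over probes well above background on all 4 arrays, an alternative chosen after seeing the data. With that alternative the difference between labels in naive T had a median over all 36 genes of -0.12 (-0.04). The 1 gene more than 2-fold lower on the WT arrays became 0 with offset 50, without correction and at 3-fold. On the Nr4a-TKO arrays the 17 genes higher became 10 at 3-fold, and the 1 lower became 0 with either normexp, without correction, with scaling to the array median and at 3-fold, and 2 at 1.5-fold. Between labels, 1 gene was apart in naive T at 1.5-fold (0 at 2-fold), and the 1 apart at 3 h became 0 with either normexp, without correction and at 3-fold, and 3 at 1.5-fold. Aars on the Nr4a-TKO arrays (1.73) turned to -0.18 as the mean over all 5 probes, one of which was above background on 1 of the 2 arrays. Of 39 changes of named genes past 2-fold, between 28 (offset 50) and 39 stayed past it, and 39 kept their direction, or 38 with the mean over all probes. Under all 11 settings the 20 cytosolic genes were above 0 on the WT arrays, and 15 to 18 were past 2-fold.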
